A study of Mus musculus with 8 samples.

Results

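Mesothelial cells are the flat epithelium that covers the surface of the liver, and their nuclei were looked for here in single-nucleus RNA sequencing of whole mouse liver. A nucleus was counted as mesothelial when at least 300 genes were detected in it, when it held at least 2 unique molecular identifiers (UMIs, 1 for each captured RNA molecule) summed over Msln, Upk3b, Wt1, Muc16 and Upk1b, when these came from at least 2 of the 5 genes, and when it held at most 1 UMI over Ptprc, Stab2, Reln and Pkhd1. The last 4 genes mark leukocytes, sinusoidal endothelium, stellate cells and bile duct epithelium. In the 7 libraries searched, 70 of 59446 nuclei (0.118%) met this rule. They are a rare population, and 66 of the 70 came from 3 mice.

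The mice were male DIAMOND mice, labelled as a cross of 129A1/SvIm and C57BL/6J, and their livers were snap-frozen. The WD tumour group (n = 3) had 48 weeks of a Western diet, which combines high-fat food with sugar in the drinking water, and carried hepatocellular carcinoma. The RD tumour group (n = 2) was returned to chow after 36 weeks of Western diet and also carried hepatocellular carcinoma. The RD no tumour group (n = 3) had the same reversal and no detectable carcinoma. All 8 mice had thus been fed the Western diet, for 48 or 36 weeks, and no group that was never exposed to it was analysed here. Age at sampling is not used: the labels put it at 48 weeks, which cannot hold together with a diet of 48 weeks begun at 2 months, as the series text has it. RD tumour 1 has exactly 20000 barcodes and is left out by the rule, so that RD tumour is represented by 1 mouse. The labels do not give which lobe was taken, how much of the liver surface the sampled piece held, or whether it contained tumour.

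The mesothelium derives from the coelomic lining of the embryo. It keeps a mixed character, with keratins, junctions and a basement membrane as in an epithelium, and vimentin and matrix genes as in a mesenchyme. Of the genes in the rule, Msln (mesothelin) and Muc16 encode a pair of surface glycoproteins that bind each other, Upk3b and Upk1b encode uroplakin-family membrane proteins, and Wt1 encodes a transcription factor of the coelomic lineage. In the developing liver, Wt1-positive mesothelium is a known source of stellate cells and other mesenchyme.

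The libraries held between 17948627 and 34363108 UMIs, and the median per kept nucleus ranged from 1120 to 2656. Members held 595 to 7310 UMIs with a median of 1708.5. Pairs of libraries shared 8 to 65 barcodes, and no member was a member in another library under the same barcode. Doublet calling, which looks for droplets with more than 1 nucleus, marked 5 of the 70 members. One of the 4 exclusion genes had its single allowed UMI in 13 members.

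The rule genes themselves are given as a description, since they chose the nuclei. They lie on 5 chromosomes of the mouse build GRCm38 in GENCODE release M21: Msln at chr17:25748613-25754378, Upk3b at chr5:136038496-136046487, Wt1 at chr2:105126529-105173616, Muc16 at chr9:18495455-18674530 and Upk1b at chr16:38773184-38800328. Muc16 was detected in 54 members, Msln in 44, Upk1b in 34, Upk3b in 29 and Wt1 in 23. Of the 70 members, 37 showed 2 of the 5 genes, 23 showed 3, 9 showed 4 and 1 showed all 5. The commonest combinations were Muc16 with Upk1b alone (9 nuclei) and Msln with Muc16 alone (8 nuclei). The median member held 4 marker UMIs and the highest held 10, while 16 members sat on the threshold with exactly 2. Just outside it, 137, 91 and 185 nuclei held a single marker UMI in the 3 mice with most members (RD no tumour 1 and 2, then RD tumour 2).

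Levels are given in CPM, for which the UMIs of a gene were summed over the nuclei of one kind in one mouse, divided by all UMIs of those nuclei and multiplied by a fixed constant. Values of the 3 mice are in the order RD no tumour 1, RD no tumour 2, RD tumour 2 throughout. Msln was at 658, 476 and 509.7 CPM in the mesothelial nuclei and at 1.72, 0.575 and 2.69 CPM in all other nuclei. Muc16 was at 658, 535 and 795 CPM in the mesothelial nuclei, and Upk3b was at 194, 416 and 183 CPM. These 66 nuclei held 55.0% of all Upk3b UMIs of the 3 libraries, 53.5% of Upk1b, 51.7% of Muc16 and 35.5% of Msln. Wt1 differed, with 7.34% of its UMIs in the mesothelial nuclei.

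The remaining Wt1 was spread over other nuclei, stellate nuclei among them. Stellate nuclei were defined by 2 or more UMIs from at least 2 of Reln, Lrat, Pth1r, Ecm1 and Colec11. In them Wt1 stood at 22.8, 26.8 and 8.18 CPM in the same 3 mice, against 271, 89.2 and 245 CPM in the mesothelial nuclei. This gap is partly set by the definitions. Wt1 helped to choose the mesothelial nuclei, and nuclei with 2 or more Wt1 UMIs could not count as stellate. With that limit, stellate nuclei held 25.4% of the Wt1 UMIs of RD no tumour 1, 35.4% of those of RD no tumour 2 and 8.02% of those of RD tumour 2. Cholangiocyte nuclei (2 or more UMIs from at least 2 genes of a bile duct list that includes Pkhd1, Cftr, Epcam and Ehf) held none in these 3 mice. The same limit of at most 1 UMI over the rule genes applied to them. The WD tumour libraries held 132, 153 and 278 Wt1 UMIs, of which their few members held 4, and the other 4 libraries searched held 27 to 162. Nuclei with several UMIs of a single marker, which the rule leaves out, were accordingly mostly Wt1 nuclei: 23 of 24, 32 of 32 and 46 of 49 in the 3 WD tumour mice.

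Each marker was then tested with the nuclei chosen by the other 4, so that it took no part in the choice. Muc16 was detected in 28 of 44 such nuclei (63.6%), at a mean over mice of 981 CPM against 1.26 CPM in the other nuclei, and it was higher in 4 of 4 mice. RD no tumour 3 among them had 1 chosen nucleus with 2 Muc16 UMIs (2401 CPM), and the mean without this mouse was 508 CPM. Msln was detected in 28 of 54 (51.9%), with means of 450.2 and 1.08 CPM, higher in 4 of 6 mice. The nucleus of RD no tumour 3 held 1 Msln UMI (1200 CPM), and the mean without this mouse was 300 CPM. Upk1b was detected in 22 of 58 (37.9%) and was higher in 3 of 5 mice. Upk3b was found in 18 of 59 (30.5%), higher in 4 of 6 mice, and Wt1 in 14 of 61 (23.0%), higher in 3 of 6. No marker passed an exact two-sided permutation test over mice with Benjamini-Hochberg adjustment over the 5 tests (adjusted p = 0.208 for Msln, Upk3b and Muc16, 0.25 for Wt1 and Upk1b). For Muc16 the smallest unadjusted p that 4 mice allow is 0.125, which was the value obtained. The mice in which a marker was not higher held 1 or 2 chosen nuclei each. RD no tumour 3, counted as higher for Muc16, Msln and Upk3b, also held only 1.

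The share of mesothelial nuclei differed widely between mice. It was 0.224% in RD no tumour 1 (23 of 10275 nuclei, exact 95% binomial interval 0.142 to 0.336%), 0.231% in RD no tumour 2 (14 of 6048, 0.127 to 0.388%) and 0.279% in RD tumour 2 (29 of 10376, 0.187 to 0.401%). RD no tumour 3 had 1 of 10351 (0.00966%, 0.000245 to 0.0538%). These 3 mice with reversed diet thus lay close together, and the remaining one was lower than all of them with an interval that did not reach theirs.

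In the WD tumour mice, 0 of 6457 nuclei of WD tumour 1 met the rule (exact 95% upper limit 0.0571%, and 0.0465% as the share that 3 counts would give). WD tumour 2 had 1 of 7068 (0.0141%, 0.000358 to 0.0788%) and WD tumour 3 had 2 of 8871 (0.0225%, 0.00273 to 0.0814%). All 3 were below RD no tumour 1 and 2, and RD no tumour 3 fell among them, so the groups overlapped. These intervals cover counting error only.

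The mean share was 0.0122 ± 0.0114% in WD tumour (SD, n = 3) and 0.155 ± 0.126% in RD no tumour (SD, n = 3). The difference of mean log2 shares was -2.47 and did not pass an exact two-sided permutation test (p = 0.3, the smallest possible with 3 against 3 mice being 0.1). With the 4 tumour-bearing mice together the mean was 0.079 ± 0.134% (SD, n = 4), and the log2 difference from RD no tumour was -1.45 (exact permutation p = 0.571, smallest possible 0.0571). RD tumour 2, which carried tumour, had the highest share of all. Median mitochondrial shares of UMIs, a sign of RNA quality, were 7.91%, 2.77% and 7.51% in the kept nuclei of WD tumour 1 to 3 and 1.30%, 3.28% and 2.32% in those of the 3 mice with most members. RD no tumour 3, with 1 member, had 1.46%, and RD tumour 1, outside the rule, had 1.65%. Their part in the difference was not tested.

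**Figure D1:**
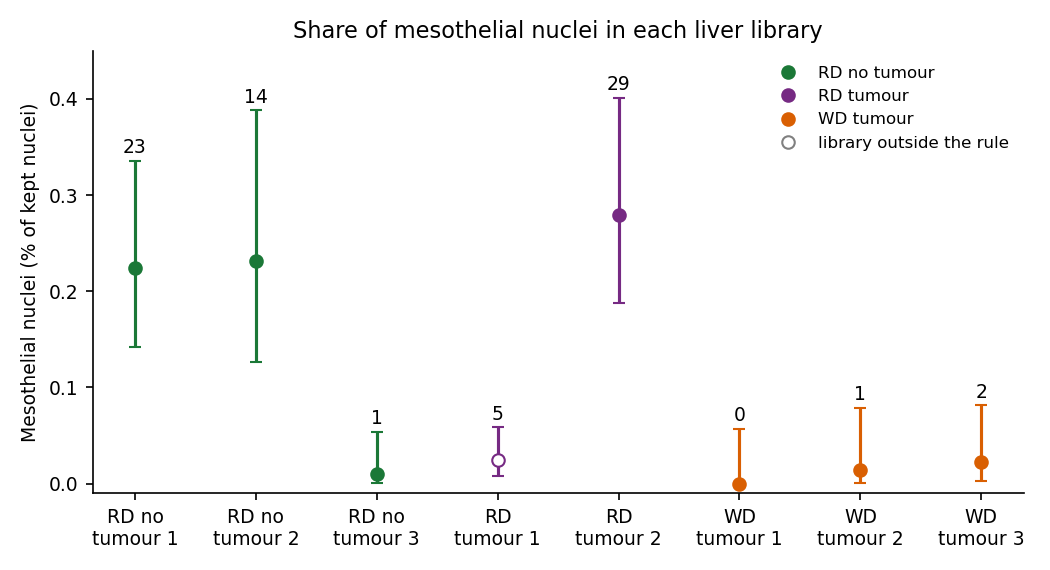
Share of mesothelial nuclei among kept nuclei in each library, in percent, with exact 95% binomial intervals. The 3 WD tumour mice and RD no tumour 3 lie at or below 0.0225%, and the other 3 mice of the rule lie between 0.224% and 0.279%.

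Genes outside the rule were compared between mesothelial and other nuclei in the 3 mice with at least 10 members, which pools 66 members. Of 15594 genes tested with edgeR's quasi-likelihood test, 324 were higher in mesothelial nuclei (2.08%) and 295 were lower (1.89%) at an adjusted p of 0.05. With size factors of the DESeq2 kind the counts were 396 and 185, and DESeq2 itself gave 508 and 79. The median log2 difference over all tested genes was -0.78 (-0.47 with those size factors and -0.10 with DESeq2), and the values below are to be read against it. None of the 619 calls changed direction in any alternative that gave it a value. The call itself rests on all 3 mice: without any 1 of them, 1 residual degree of freedom was left and edgeR called 0 genes (1452 to 1636 at an unadjusted p under 0.05). DESeq2 without RD no tumour 1, RD no tumour 2 or RD tumour 2 called 365, 337 or 308 genes. The same member sums enter this and the later comparisons with stellate and cholangiocyte nuclei, which are therefore not independent.

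Several of the 12 genes with the greatest increase, named by a rule on size and test, are best known from neurons. Rbfox1, an RNA-binding regulator of splicing, was at 4703, 4668 and 5525 CPM in mesothelial nuclei and at 26.5, 9.37 and 23.1 CPM in other nuclei. All 3 mice were high, and no value of the other nuclei came near them. The log2 difference was 7.70 ± 0.37 (SE, adjusted p = 5.52e-06). Il1rapl1, a synaptic adhesion receptor related to the interleukin-1 receptor (chrX:86740870-88115645), was at 1548, 2230.2 and 1121 CPM against 1.75, 2.34 and 6.37 CPM, a log2 difference of 8.62 ± 0.51 (SE, adjusted p = 1.27e-05). Kcnd2, a voltage-gated potassium channel subunit, was at 523, 1100.2 and 1529 CPM against 1.41, 1.59 and 6.63 CPM. Cadm2, a cell adhesion molecule of the immunoglobulin family, was at 503, 1100.2 and 836 CPM against 1.17, 2.78 and 3.94 CPM. For each of these genes every mesothelial value lay above every value of the other nuclei.

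The other 8 of these 12 genes have varied functions. Rspo1, an R-spondin that strengthens Wnt signalling, was at 310, 268 and 224 CPM against 0.447, 0.265 and 1.51 CPM, a log2 difference of 8.23 ± 0.68 (SE, adjusted p = 0.000131). Igfbp5, a binding protein of insulin-like growth factors, was at 1006, 3003 and 1569.9 CPM against 4.02, 5.92 and 11.2 CPM. Fmod, a small matrix proteoglycan, was at 38.7, 238 and 61.2 CPM against values of at most 0.354 CPM. The list was completed by Lrp2 (an endocytic receptor), Ephb1 (an ephrin receptor), Chst4 (a sulfotransferase), Sh3rf2 and Pcnx2, with log2 differences between 7.52 and 8.15. All 12 were higher in 3 of 3 mice, which the rule that named them required. All 12 kept their call with DESeq2 when any 1 mouse was left out.

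The same genes were detected in few other nuclei at matched depth. With each nucleus thinned to 1000 UMIs, which left 54 members and 19498 other nuclei, Rbfox1 was detected in 81.5% of members and 1.18% of the others (78.8% and 1.94% unthinned). For Il1rapl1 the thinned shares were 72.2% and 0.282% (72.7% and 0.488% unthinned), for Kcnd2 46.3% and 0.205% (53.0% and 0.439% unthinned), and for Cadm2 51.9% and 0.251% (59.1% and 0.439% unthinned).

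**Figure D2:**
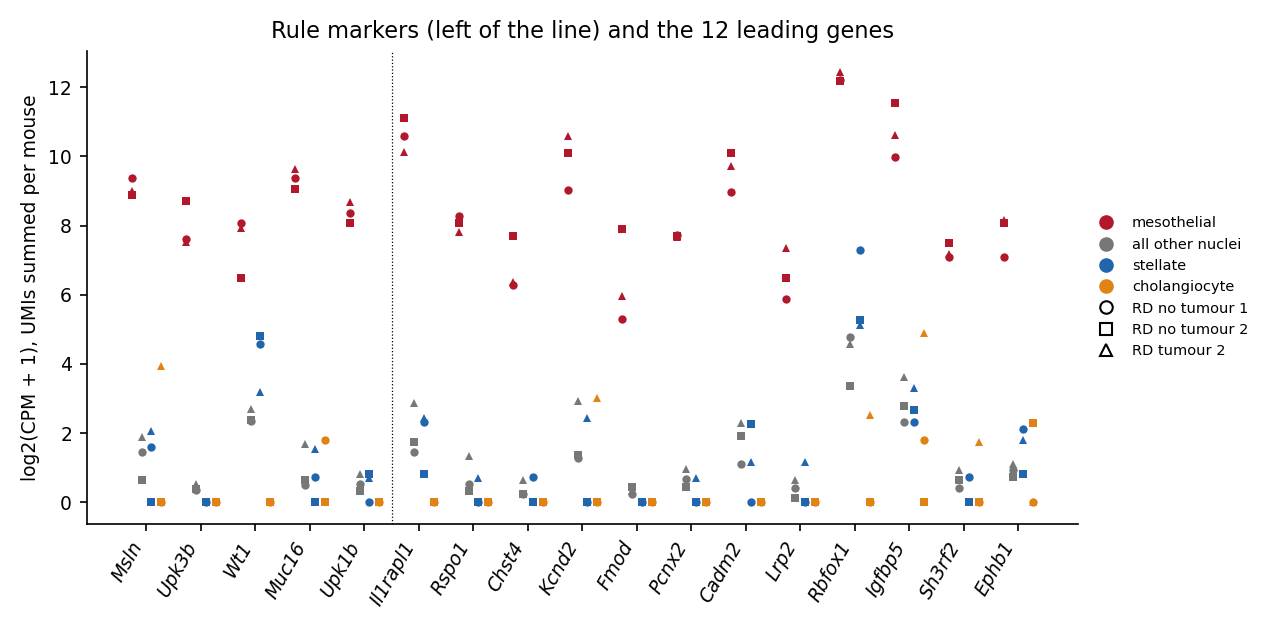
Levels as log2(CPM + 1) of the 5 genes of the rule (left of the line) and the 12 leading genes in mesothelial, other, stellate and cholangiocyte nuclei, with 1 point for each of 3 mice. For each of the 17 genes the 3 mesothelial points lie above all points of the other kinds, as for Rbfox1 at 4668 CPM or more against at most 26.5 CPM in the other nuclei, and the gap is narrowest for Wt1. For the 5 rule genes this is partly set by the definitions: they chose the mesothelial nuclei, and stellate and cholangiocyte nuclei could hold at most 1 UMI over them.

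Per nucleus, the 12 leading genes together gave a median of 20 UMIs in the 66 members (lowest 0, highest 76) and a median of 0 in the other nuclei of every library. By mouse the medians were 20, 30.5 and 18. Members with exactly 2 marker UMIs had a median of 15 and those with more had a median of 21, but the genes were chosen in these same nuclei. The 5 members called doublets had 0 to 6. Without doublets, 295 genes were higher and 209 lower.

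Some nuclei outside the rule also held these genes. Among the other nuclei of the 3 mice, 9, 8 and 30 held at least 10 UMIs from at least 4 of the 12 leading genes, and 37 of these 47 also held a UMI of a rule gene. Counted this way, with members included, the 3 mice had 24, 19 and 50 such nuclei (0.234%, 0.314% and 0.482%), while RD no tumour 3 had 0 and WD tumour 1 to 3 had 1, 2 and 4 (0.0155%, 0.0283% and 0.0451%). The leading genes were chosen for their level in the members of these 3 mice, which are in the counts, so the counts of these mice are no independent support for their order.

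**Figure D3:**
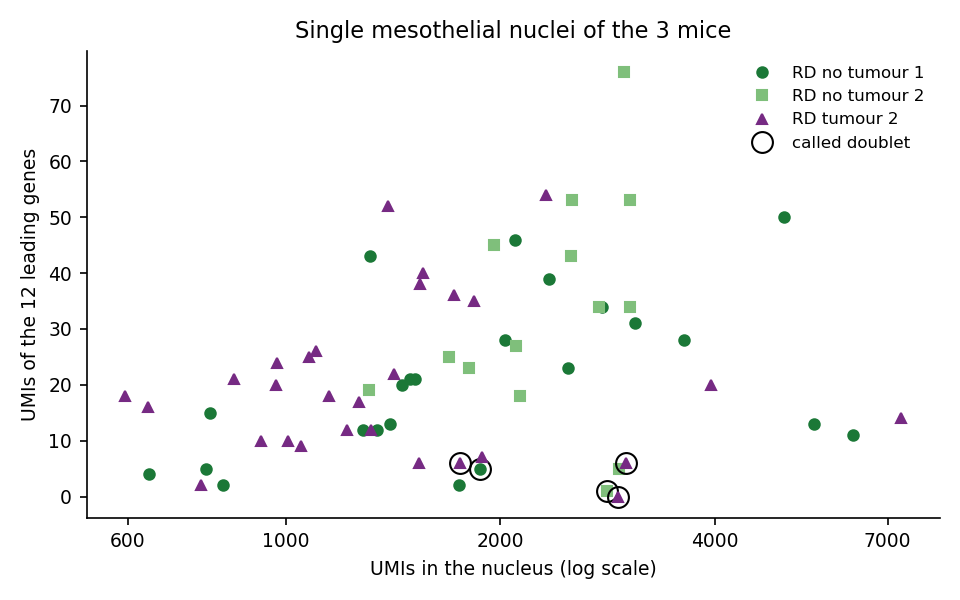
UMIs of the 12 leading genes in each of the 66 mesothelial nuclei of 3 mice against the total UMIs of the nucleus (log axis), with nuclei called doublets ringed. Most nuclei lie well above 0, around a median of 20, and the 5 ringed nuclei lie between 0 and 6.

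A list of 18 further genes known from mesothelium gave 15 that could be tested, of which 12 were higher than in the other nuclei and none lower, with a median log2 difference of 5.96 against -0.78 over all genes. The list was chosen with earlier results of these data known. Gpm6a, a membrane glycoprotein, was at 813, 922 and 1183 CPM against 6.39, 4.77 and 15.1 CPM (log2 difference 6.53 ± 0.30, SE, adjusted p = 5.52e-06). Efemp1, a secreted fibulin, was at 561, 952 and 917 CPM against 18.04, 20.4 and 24.9 CPM (4.85 ± 0.25, SE). Bnc1, a zinc-finger factor of keratinocytes and mesothelium, was at 77.4, 29.7 and 102 CPM against at most 0.368 CPM. In all 3 genes the mesothelial values lay above all others, although that of Bnc1 in RD no tumour 2 came from 1 UMI. Against stellate nuclei 8 of 11 tested members of the list were higher (median 6.72, against -0.29 over all genes), and against cholangiocyte nuclei 6 of 7 (median 7.23, or 6.58 with genes at 0 UMIs at their bound, against -0.07). A filter on low counts left only these 11 and 7 of the 18 genes to test. A gene near 0 in the compared nuclei passes it only if it is high in the members, so both counts are partly set by the filter. Igfbp6, Nkain4, Lrrn4, Cldn15, Krt7, Pkhd1l1, Ptgis, Rspo1 and Slpi were the other 9 that rose. Of the keratins, Krt8 and Krt18 did not pass (log2 differences 0.16 and -0.26), and Krt19 was at 116, 0 and 20.4 CPM (4.55 ± 1.43, SE, adjusted p = 0.115). Calb2 and Aldh1a2, both used as mesothelial markers in other settings, had 0 UMIs in the members, which allows up to 22.3 CPM over the 3 mice.

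Among 13 tested transcription factors of the mesothelial and coelomic lineage, 4 were higher and none lower (median log2 difference 0.54, or 1.51 without 5 genes at 0 UMIs in the members whose level elsewhere was under the 22.3 CPM that this allows). Bnc2, the paralogue of Bnc1, was at 697, 595 and 877 CPM against 5.91, 23.3 and 22.1 CPM (5.24 ± 0.46, SE, adjusted p = 0.000176). Bnc1, Meis1 and Meis2 were the other 3, and the Meis genes encode homeodomain cofactors. Gata4 was at 194, 149 and 143 CPM against 41.9, 69.5 and 77.3 CPM and did not pass (1.05 ± 0.41, SE, adjusted p = 0.221). Of the 19 genes listed, 9 had 0 UMIs in the members, Tcf21, Lhx2, Hand2 and Nr2f1 among them.

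Of 20 tested genes of epithelial junctions and polarity, 3 were higher and 1 was lower, with a median of -0.25. Cdh3, P-cadherin, was at 116, 119 and 81.6 CPM against 2.58, 0.265 and 1.07 CPM (6.01 ± 0.89, SE, adjusted p = 0.00426). Cldn15, a claudin of leaky epithelia, and Ezr, the membrane linker ezrin, were also higher. Cdh2, N-cadherin, was lower, at 155, 208 and 122 CPM against 239, 407 and 504 CPM (-1.61 ± 0.35, SE, adjusted p = 0.036). The mesothelial and other values of Cdh2 did not overlap. Epcam had 0 UMIs in the members, but it was at no more than 4.90 CPM in the other nuclei, below the 22.3 CPM that 0 UMIs allow.

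The basement membrane list split by chain. Of 19 tested genes 7 were higher and none lower (median 1.40), and 4 of the 7 were the type IV collagen chains Col4a3, Col4a4, Col4a5 and Col4a6. Col4a6 rested on only 1, 1 and 10 UMIs in the members (19.4, 29.7 and 204 CPM against 1.92, 1.59 and 6.96 CPM). Col4a4 was at 232, 297 and 245 CPM in mesothelial nuclei and at 4.61, 3.76 and 4.64 CPM in the other nuclei (5.49 ± 0.43, SE, adjusted p = 8.54e-05). Col4a3, its neighbour in the same collagen trimer, was at 77.4, 208 and 204 CPM against 8.35, 6.94 and 6.88 CPM. Both groups of values were well apart in each mouse. Col4a1 and Col4a2, the chains of nearly all basement membranes, were at 96.8, 0 and 20.4 CPM and at 19.4, 0 and 20.4 CPM and did not pass (log2 differences -0.01 and -0.61, adjusted p = 0.992 and 0.745). The other 3 that rose were the laminin chains Lama3, Lama4 and Lamb2, while Lama1, Lamb1 and Col15a1 had 0 UMIs in the members. Lama1, Lamb1 and Col15a1 were at no more than 12.7 CPM in the other nuclei, below the 22.3 CPM that 0 UMIs allow. Their zeros thus do not set the members apart from the other nuclei.

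Of 19 tested genes of interstitial matrix and fibroblasts, 4 were higher than in the other nuclei and none lower (median 1.08). Dcn, the proteoglycan decorin, was at 871, 2498 and 1325 CPM against 298, 248 and 306 CPM (1.96 ± 0.30, SE, adjusted p = 0.00663). Col3a1 was at 135, 268 and 265 CPM against 17.7, 9.81 and 14.9 CPM, and Col5a2 and Fbln1 were the other genes that rose. The 4 genes that rose were higher in 3 of 3 mice. The collagens Col1a1 and Col1a2 were at 0 UMIs and at 1 UMI in the members. In the other nuclei they were at no more than 1.92 and 9.35 CPM, below the 22.3 CPM that 0 UMIs allow, so these counts do not set the members apart.

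**Figure D4:**
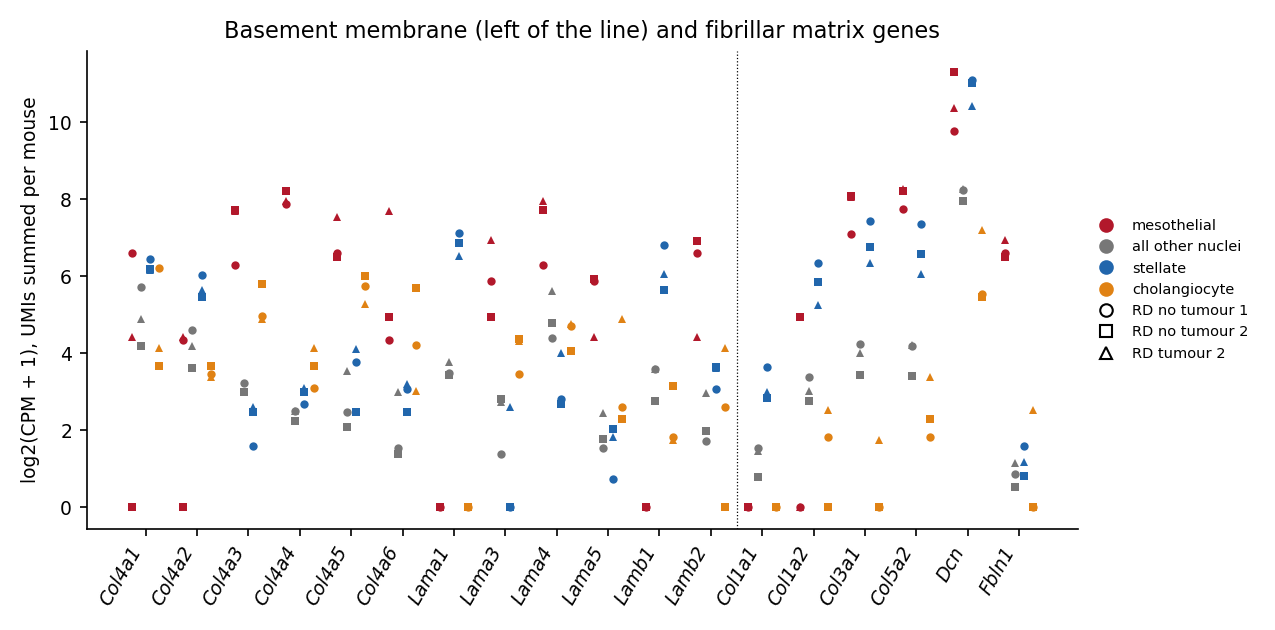
Levels as log2(CPM + 1) of basement membrane genes (left) and fibrillar matrix genes (right) in mesothelial nuclei and the other kinds of nuclei, with 1 point for each of 3 mice. Col4a3 to Col4a6 are higher in mesothelial than in the other nuclei, as with Col4a4 at 232 CPM or more against at most 4.64 CPM, and Col4a1 and Col4a2 are not set apart. The mesothelial points of Col4a6 rest on 1, 1 and 10 UMIs.

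Genes of the mesothelial to mesenchymal transition, in which mesothelium takes on a myofibroblast-like state, moved in both directions. Of 17 tested, Tgfb3 was higher and Cdh2 and Zeb2 were lower. The median was -1.29, or -0.97 without 3 genes at 0 UMIs in the members, whose level elsewhere was under the 22.3 CPM that this allows. Zeb2, a repressor of epithelial genes, was at 194, 208 and 102 CPM against 914, 443 and 554 CPM (-2.33 ± 0.33, SE, adjusted p = 0.00404). Macrophages and stellate cells, which are part of the other nuclei, also express Zeb2. Vim was at 58.1, 268 and 81.6 CPM against 41.3, 15.4 and 26.9 CPM and did not pass (1.80 ± 0.64, SE, adjusted p = 0.182). Acta2 and Des, the smooth muscle actin and desmin genes, had 0 UMIs in the members. In the other nuclei they were at no more than 19.5 and 9.53 CPM, below the 22.3 CPM that 0 UMIs allow, so these zeros do not set the members apart.

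Among 20 tested secreted signals, Fgf2, Rspo1 and Wnt5a were higher and Hgf and Vegfa were lower. Fgf2 was at 194, 29.7 and 102 CPM against 2.47, 1.59 and 2.72 CPM (5.27 ± 0.72, SE, adjusted p = 0.00301). Wnt5a, a ligand of non-canonical Wnt signalling, was at 19.4, 29.7 and 122 CPM against at most 3.06 CPM (adjusted p = 0.0366). In both genes the lowest mesothelial value lay above the highest of the other nuclei, but that value came from 1 UMI. The members held 10, 1 and 5 UMIs of Fgf2 and 1, 1 and 6 of Wnt5a. Since 1 UMI alone gives 19.4 or 29.7 CPM in the RD no tumour mice, the lack of overlap adds little. Of 7 surface glycan and lubricant genes tested, Gpc3, the heparan sulfate proteoglycan glypican 3, was higher at 426, 862 and 408 CPM against 3.23, 2.17 and 4.53 CPM (6.98 ± 0.41, SE, adjusted p = 1.27e-05). Cd44, a hyaluronan receptor also found on leukocytes, was lower.

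Complement and acute-response genes gave 1 increase among 18 tested. Slpi, a secreted protease inhibitor, was at 774, 1933 and 81.6 CPM against 26.8, 10.7 and 9.35 CPM (5.19 ± 0.62, SE, adjusted p = 0.00135). C3 was at 7432, 5204 and 1937 CPM against 3316, 1025 and 1394 CPM and did not pass (0.95 ± 0.33, SE, adjusted p = 0.178). The 10 hepatocyte markers summed to 23904, 35653 and 23875 CPM in mesothelial nuclei and to 22208, 34948 and 24443 CPM in the other nuclei. Hepatocyte RNA was thus as high in the members as elsewhere, hepatocytes make complement, and the part of that RNA in these levels was not tested.

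In 3 further lists few genes or none passed. Amotl2, a partner of the regulator YAP, was the only one of 11 YAP and TEAD genes that rose, at 116, 119 and 143 CPM against 12.4, 20.7 and 25.5 CPM (2.35 ± 0.47, SE, adjusted p = 0.0232). No retinoid gene passed in edgeR out of 12 (1 at an unadjusted p under 0.05, and 0 by DESeq2), with a median of -0.77, or -0.39 without 3 genes that allow no fold for the same reason. No cell cycle gene passed in edgeR out of 10 (0 at an unadjusted p under 0.05, and 0 by DESeq2), and 8 of the 12 genes listed had 0 UMIs in the members. The fitted median of this list, -8.02, comes from such genes, and without the 6 that allow no fold it was -0.46.

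**Figure D5:**
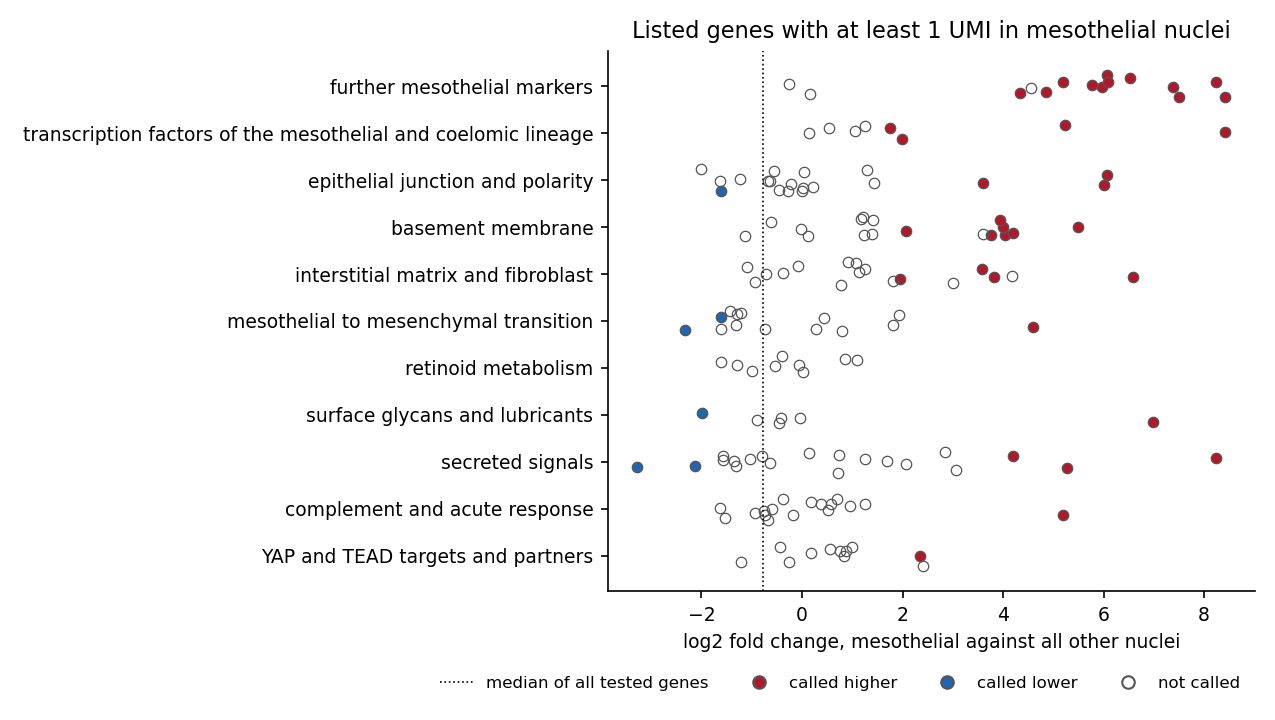
Log2 differences between mesothelial and other nuclei for the tested genes of 11 lists that had at least 1 UMI in the members, with genes called higher in red, lower in blue and uncalled genes open. The dotted line is the median of all tested genes (-0.78), and the further mesothelial markers lie furthest above it, with 12 of 15 called.

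Genes lower in mesothelial than in other nuclei have to be read with the rule in mind, since the exclusion of Ptprc, Stab2, Reln and Pkhd1 removes leukocyte, endothelial, stellate and biliary nuclei from the members. Bank1, a B-cell adaptor, had 0 UMIs in the members and was at least 4.63-fold lower. Tox, a nuclear factor known from T cells, had 3 UMIs in the members and 25303 in the other nuclei, a 14.4-fold lower level (counting interval 4.91 to 69.7). Tox was at 0, 29.7 and 40.8 CPM in mesothelial nuclei, 159.7, 469.7 and 369 CPM in the others, 140.6, 369.9 and 286 CPM in stellate and 183, 577 and 409 CPM in cholangiocyte nuclei, and the test was passed against all 3 kinds.  Dock2, Adgre4, Rgl1 and Tapt1 had 1 UMI each in the members. Of these 6 genes, DESeq2 called 4, and 1 when any 1 mouse was left out.

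Markers of other cell types were present in the members to different degrees. Of 10 portal fibroblast markers 7 were tested, and Cd34, Col14a1, Eln and Gas6 were higher than in the other nuclei. Their list summed to 1277, 1933 and 897 CPM in mesothelial nuclei and 140.4, 54.0 and 106 CPM in the others, and its defining members Dpt, Mfap4 and Pi16 were at 0 UMIs in the members. These 3 were at no more than 5.12 CPM in the other nuclei of these 3 mice, below the 22.3 CPM that 0 UMIs allow, so the zeros do not set the members apart, and the part of fibroblast RNA was not tested. The cholangiocyte markers summed to 1316, 1070.5 and 1284 CPM against 365, 183 and 276 CPM. Most of the sums in the members was the single gene Bicc1, at 1006, 892 and 1019 CPM against 90.0, 41.5 and 83.9 CPM. Bicc1 and Cftr were higher, and Epcam, Ehf and Sox9 were at 0 UMIs. The last 3 were at no more than 14.1 CPM in the other nuclei, so these zeros do not set the members apart either. Among further lists, lower genes included Pecam1 of 9 endothelial markers tested, Hgf of 8 stellate, Cd5l of 9 macrophage, Bank1 of 10 lymphocyte and Hnf4a of 10 hepatocyte markers. The summed hepatocyte markers, given above, were lower in 1 of the 3 mice, and Kdr of the endothelial list was at 77.4, 119 and 81.6 CPM against 25.8, 43.9 and 41.9 CPM without passing. The pancreatic acinar markers were at 0, 0 and 306 CPM in the members and at 8.39, 10.0 and 399 CPM in the other nuclei, so that the acinar RNA of RD tumour 2 was found in both kinds.

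Stellate nuclei are a mesenchymal class in which Wt1 was also found, and the comparison leaves out the genes of both rules. Of 9225 genes tested with edgeR, 225 were higher in mesothelial nuclei (2.44%) and 158 were lower (1.71%). Wdr17, a WD-repeat protein gene, was at 6290.4, 5977 and 5729 CPM in mesothelial nuclei and at 17.4, 2.29 and 18.9 CPM in stellate nuclei (8.74 ± 0.52, SE, adjusted p = 0.000146). Nxph1, a secreted glycoprotein known from neurons, was at 1258, 1606 and 1039.8 CPM against 0, 5.35 and 5.66 CPM, and Sema3c, a secreted guidance molecule, was at 464.5, 387 and 754 CPM against 0.669, 0 and 3.78 CPM. The values of the 2 kinds did not overlap in any of these genes. Cyp2s1 had 0 UMIs in stellate nuclei and was at least 163-fold higher. Prph and Tmeff2 joined 6 of the leading genes named above (Rspo1, Kcnd2, Pcnx2, Il1rapl1, Cadm2 and Sh3rf2). Without any 1 mouse, edgeR called 0 genes here (920 to 1008 at an unadjusted p under 0.05), and DESeq2 called 171, 200 and 172.

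The 6 genes named as most reduced against stellate nuclei had no UMI in the 66 members. Dach1, a transcriptional cofactor, was at 370, 303 and 185 CPM in stellate nuclei and at least 12.7-fold lower in mesothelial nuclei. Nr1h5, a nuclear receptor, was at least 12.5-fold lower, Il34, a ligand of the macrophage growth factor receptor, at least 11.7-fold lower, and Akap6, Sept4 and Lrp4 at least 10.5-, 8.88- and 8.66-fold lower. DESeq2 called all 6 with 3 mice, but 1, 0 and 0 of them without RD no tumour 1, RD no tumour 2 or RD tumour 2. Hgf, hepatocyte growth factor, was at 19.4, 0 and 20.4 CPM against 1113, 715 and 674 CPM in stellate nuclei (-6.01 ± 0.50, SE, adjusted p = 0.000142). Among the lineage factors, Bnc2 and Meis2 were higher than in stellate nuclei, and Hand2 and Tbx20 were lower. Pdgfra and Pdgfrb, receptors of mesenchymal cells, were lower as well, and Dcn, Col3a1 and Gata4 did not pass (log2 differences -0.55, 0.73 and -0.01). Of 18 basement membrane genes tested 7 were higher, again with Col4a3 to Col4a6 (Col4a6 on 1, 1 and 10 UMIs in the members), and Lama1 was lower (at least 5.09-fold).

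Against cholangiocyte nuclei, the epithelium of the bile ducts, 282 of 3420 genes were higher in mesothelial nuclei (8.25%) and 150 were lower (4.39%). Without RD no tumour 1, edgeR called 61 and 2, without RD no tumour 2 it called 56 and 0, and without RD tumour 2 it called 0 (816 at an unadjusted p under 0.05), where DESeq2 called 195. In simulated data the false calls of this comparison exceeded a share of 0.05, unlike those of the other comparisons. Il1rapl1, Cadm2, Gpc3, Igfbp6, Dnajc6 and Rspo1 had 0 UMIs in cholangiocyte nuclei and were at least 560-, 277-, 189-, 120-, 104- and 95.9-fold higher. Rbfox1 had 2 UMIs there. Adgrd1, Pcnx2, Kcnd2, Lvrn and Adamtsl1 completed the 12. In the other direction, Kcnma1, a calcium-activated potassium channel, was at 269, 357 and 178 CPM in cholangiocyte nuclei and had 0 UMIs in the members (at least 11.4-fold lower). Chst9, Angpt1 and Dcdc2a also had 0 UMIs. Onecut2, a factor of the biliary lineage, had 4 UMIs in the members and was 21.5-fold lower (counting interval 8.38 to 79.3), and Tox was lower too. Of 21 interstitial matrix genes listed, the filter on low counts left 5 to test, and Dcn, Col3a1, Col5a2 and Fbln1 were higher in mesothelial nuclei. A gene low in cholangiocyte nuclei passes this filter only if it is high in the members, so such counts are partly set by the filter. Of 20 complement and acute-response genes listed, 10 were tested and 6 were higher (C1ra, C3, C4b, Cfb, Serping1 and Slpi). DESeq2 called 4 of the 10. The hepatocyte markers summed to 18414, 29307 and 20533 CPM in cholangiocyte nuclei, somewhat under the members' values, and their part in the complement difference was not tested.

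A comparison of gene levels in mesothelial nuclei between diets could not be tested, because no WD tumour mouse had more than 2 members. Between the 3 mice with enough members, some levels differed by more than counting error, and they are given as values chosen after they were seen. Slpi was at 774 CPM in RD no tumour 1 (exact 95% Poisson interval 553 to 1054) and 1933 CPM in RD no tumour 2 (1492 to 2463.5), and at 81.6 CPM in RD tumour 2 (22.2 to 209). Pkhd1l1, a large membrane protein of the fibrocystin family, went the other way, at 135 CPM (54.5 to 279), 178 CPM (65.5 to 388) and 591 CPM (396 to 849). With 1 tumour-bearing mouse against 2, tumour and mouse cannot be told apart.

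Rbfox1 by contrast was alike in these mice, with intervals of 4130.5 to 5333, 3967 to 5458 and 4887 to 6224 CPM that overlap. The lone members elsewhere carried fewer or similar leading-gene UMIs: 3 in RD no tumour 3, 18 in WD tumour 2, and 5 and 11 in WD tumour 3.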

How the data were processed

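Single-nucleus libraries (Chromium 3' v3.1, per the labels) of 8 mouse livers were analysed. The authors deposited matrices of raw counts of UMIs for every gene in every barcode. Per the file headers these come from Cell Ranger 7.0.0, and the build is mm10 per the submitters' processing notes. The annotation, intron and strand settings and cell calling are not given in the sources used here, so overlapping antisense genes cannot be told apart. The members and gene lists were chosen with earlier results of these data known.

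Barcodes with at least 300 genes were kept (79446 of 80575 in 8 libraries), doublets were kept and called with Scrublet in scanpy 1.11.5 (the highest scores, up to an expected share of 0.8% per 1000 barcodes), and no cells were clustered. UMI counts were summed per mouse and kind of nucleus and tested with edgeR 4.0.16 in R 4.3.3 (quasi-likelihood, TMM, filterByExpr, Benjamini-Hochberg, threshold 0.05), leaving out the genes of the rules. The mouse entered as a block, because both sums come from the same mouse; mice needed 10 nuclei of each kind. The labels do not say that mice were reared or processed apart, so p-values measure a spread among these mice only. For genes, with the mouse as a block, it is the spread over mice of the difference between kinds of nuclei within a mouse. DESeq2 1.42.0 was an alternative. Shares were compared as log2((nuclei + 0.5)/(kept + 1)), and single markers as log2(CPM + 10), by exact permutation (scipy 1.17.1). A level of 0 was bounded at 3 counts over the 3 mice pooled. Genes named beyond the lists were the 12 highest and 6 lowest log2 differences among those called, moved alike in every mouse and with a mean of at least 100 CPM in the higher kind; predicted and mitochondrial genes were skipped. The tests were checked on simulated data: smaller changes were often missed against other and stellate nuclei, and false calls exceeded a share of 0.05 against cholangiocyte nuclei. Of 32285 gene IDs, 32235 matched GENCODE M21, used only for positions. Some genes of the lists are not reported here.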

Additional observations from a re-analysis of the deposited data

Results flagged for a closer look

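In RD tumour 1, the library with exactly 20000 barcodes that was left out, 5 nuclei met the mesothelial rule (0.025%, exact 95% binomial interval 0.00812 to 0.0583%). They stand out only because that library took no part in the comparisons. Their UMIs over the 12 leading genes were 2, 6, 7, 10 and 4, and Wt1 was at 0 UMIs in all 5. With this library included, the log2 difference in share between tumour-bearing mice and RD no tumour was -1.51 (exact two-sided permutation p = 0.464, smallest possible 0.0357).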

How the results depend on the processing

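No result changed sign. The log2 difference in share stayed below 0 in all alternatives: for WD tumour against RD no tumour it was -3.07 with 3 marker UMIs, -2.14 with 500 genes, -2.44 without doublets, -1.70 after thinning to 1000 UMIs and between -3.81 and -1.79 with single mice left out; for tumour against no tumour it was -1.97, -1.13, -1.45, -0.70 and between -2.79 and -0.74. By 5 mesothelial genes outside the rule (Rspo1, Bnc1, Nkain4, Igfbp6, Lrrn4), chosen after seeing the data, it was -2.83 and -1.74. All 5 were called higher in the members of RD no tumour 1, RD no tumour 2 and RD tumour 2, so this choice gives no independent support. None of these differences in share passed. Counts of called genes, given as higher and lower, moved more. Against the other nuclei they were 508 and 79 with DESeq2, 396 and 185 with DESeq2-type size factors. Without the mouse block that pairs the sums of 1 mouse they were 322 and 131, against stellate nuclei 233 and 163, and against cholangiocyte nuclei 246 and 83. Against stellate nuclei no filter gave 230 and 238, which turns the majority from higher (58.7%) to lower (49.1% higher), and DESeq2 called 255 and 162. Against cholangiocyte nuclei 70 were lower with DESeq2 and 67 with 3 marker UMIs. Leaving out a mouse gave 0 and 0 against other and stellate nuclei (920 to 1008 at an unadjusted p under 0.05 for stellate), and 0 to 61 higher and 0 to 2 lower against cholangiocyte nuclei; requiring 20 nuclei, which drops RD no tumour 2, gave 0 and 0, 0 and 0, and 56 and 0. Fewer mice leave 1 residual degree of freedom. DESeq2 with a mouse left out, added after seeing the data, gave, without RD no tumour 1, RD no tumour 2 and RD tumour 2, 361, 295 and 271 higher and 4, 42 and 37 lower against other nuclei, 141, 140 and 134 higher and 30, 60 and 38 lower against stellate, and 122, 156 and 166 higher and 7, 6 and 29 lower against cholangiocyte nuclei. No paired analysis was possible for genes of mesothelial nuclei between diets, because WD tumour mice had 0, 1 and 2 members, and its other settings were not run. Depth limits the levels to 134343 UMIs over 66 nuclei, so a gene at 0 UMIs may be at up to 22.3 CPM.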
